A study of Rattus norvegicus with 6 samples.

Results

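Septins are a family of cytoskeletal GTP-binding proteins, and 11 of their genes were followed here in INS-1 cells, which were derived from a rat insulinoma, still make insulin and stand in for beta cells of the pancreas. In the deposited table these genes stand under names that look like dates, from 1-Sep to 11-Sep, of which the number gives the septin. The genes were taken by that name alone, which gave 11 rows of 35362, without regard to their values. Of the other 3 rows of this form, 15-Sep is a selenoprotein gene and was left out, and 12-Sep and 14-Sep lie outside the range. Each of the 11 rows lay on the chromosome that carries the septin of that number in RefSeq (GRCr8, used for names and neighbours), and at least 5 of the 6 named genes nearest to each row were also neighbours of that septin there, so 2-Sep, 3-Sep, 6-Sep, 10-Sep, 11-Sep and the others are called Septin2, Septin3, Septin6, Septin10, Septin11 and so on below.

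The cells had been transduced with retrovirus made from a puromycin-marked vector for Flag-tagged menin, and kept in an RPMI-based medium at passages 75 to 80. Men1 encodes menin, a scaffold protein of the nucleus found in histone methyltransferase complexes. The first group, S487D, overexpressed menin in which aspartate takes the place of a serine, as is commonly done to mimic its phosphorylation, and the second, S487A, overexpressed menin with alanine at that position, which cannot be phosphorylated. Each group held 3 libraries of mRNA, and a gene called higher or lower below is so in S487D when set against S487A. Cells without a mutant were not analysed here. Nothing in the labels tells whether the 3 libraries were grown apart, so the p-values rest on a spread that may be technical. Nor do they say whether each population was 1 clone, so the mutant cannot be told apart from the population that carries it. In bulk RNA, fewer cells with a transcript and less of it per cell cannot be told apart either.

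The libraries held 9444801 to 10867549 reads assigned to listed genes. Men1 was read at 113, 103 and 119 RPKM (reads scaled by gene length and by the assigned reads of the library) in S487D and at 71.2, 76.7 and 75.0 RPKM in S487A, from transgene and rat gene together as far as these could map. It was called higher in S487D (log2 change 0.58, limma adjusted p = 2.89e-05). The exchanged residue thus cannot be told apart from the Men1 mRNA level. All 10 beta cell markers were at 1 RPKM or more in every library, with summed levels of 20861 to 21999 RPKM in S487D and 8768 to 9390 RPKM in S487A. Among them were Ins1, at 16211 to 17297 RPKM in S487D and 4489 to 5019 RPKM in S487A, and Pdx1, at 221 to 234 RPKM in S487D and 201 to 213 RPKM in S487A. Mafa, an activator of the insulin genes, was at 133 ± 10.7 RPKM in S487D and 35.04 ± 1.01 RPKM in S487A, and Ins2 at 341 ± 15.8 RPKM in S487D and 108 ± 1.37 RPKM in S487A (SD, n = 3 each). The part of these differences in the septin results was not tested. All 15 markers of other cells stayed below 1 RPKM in every library, with summed levels of 1.06 to 1.45 RPKM in S487D and 1.32 to 2.16 RPKM in S487A. Dcn, Cdh5, Ptprc, Cpa1, Prss1, Sst and Ppy were at 0 in all 6 libraries.

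Septins assemble end to end into mixed rods that pair into filaments at the cell cortex, on actin and on microtubules, where they act as scaffolds and as barriers to diffusion. They are known from the cleavage furrow of dividing cells, the base of cilia and sites of vesicle fusion. By sequence they form 4 subgroups, named after SEPT2, SEPT3, SEPT6 and SEPT7, and a rod takes its parts by subgroup, so that members of a subgroup can stand in for each other. Septin7 is the sole member of its subgroup and is shared by the rods. In this list Septin1, Septin2, Septin4 and Septin5 belong to the SEPT2 subgroup, Septin3 and Septin9 to the SEPT3 subgroup, and Septin6, Septin8, Septin10 and Septin11 to the SEPT6 subgroup.

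INS-1 cells of both groups had mRNA of all 4 subgroups, and the summed septin level was close in both. It came to 270, 260 and 276 RPKM in S487D libraries and 260, 258 and 265 RPKM in S487A libraries. The groups' sums overlapped. Septin9, Septin5 and Septin2 made up 66.6 ± 0.69% of the sum in S487D and 66.7 ± 1.0% in S487A (SD, n = 3 each). All 11 septins together took 0.0890 to 0.0934% of the assigned reads in S487D and 0.0901 to 0.0922% in S487A.

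Single members moved in both directions. Of the 11 genes, 10 passed the filter of at least 1 RPKM in at least 3 libraries, each of them by being above 1 RPKM in all 6. Among these 10, Septin3 and Septin11 were called higher and Septin10 and Septin6 lower in S487D (limma on log2(RPKM + 1), Benjamini-Hochberg adjusted p under 0.05 over 12527 genes), and 6 were not called. Of all genes tested, 44.4% were called, 20.1% higher and 24.3% lower, so 4 septins of 10 is a share near the background. Of the called genes, 45.3% were higher, against 58.9% after median centring and 55.4% after quantile normalization. By voom on the reads 48.6% of all genes were called. The median log2 change of the 10 septins was -0.03, beside -0.01 for all genes tested, and their median size of change was 0.15, beside 0.17. The RPKM values of the groups did not overlap for these 4 septins, where 54.6% of all genes tested had groups that did not overlap. A two-sided exact permutation test gave p = 0.1 for each of the 4, the smallest that 3 libraries against 3 can give. The Septin6 call lay at the threshold and was lost in most alternatives, as given with its values below.

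**Figure D1:**
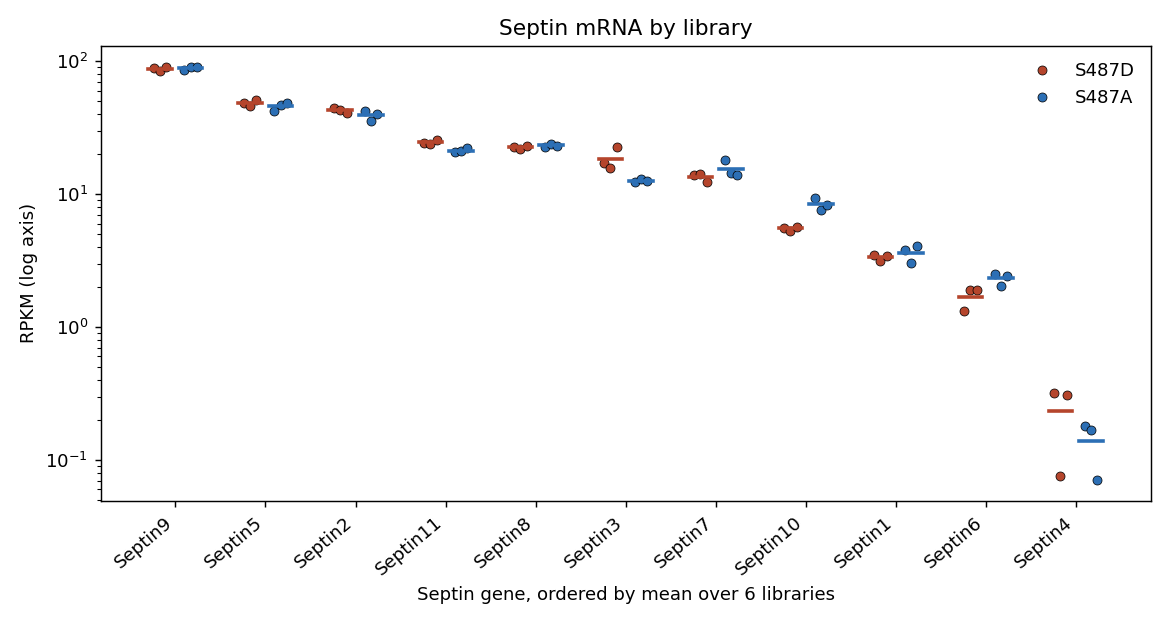
RPKM of the 11 septin genes on a log axis, with a point for each library, S487D left of S487A within each gene, and a bar at the mean of 3 libraries. Septin9 is highest at 84.7 to 90.0 RPKM in S487D and 86.0 to 90.9 RPKM in S487A, and Septin4 lowest, at 0.0706 to 0.319 RPKM.

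**Figure D2:**
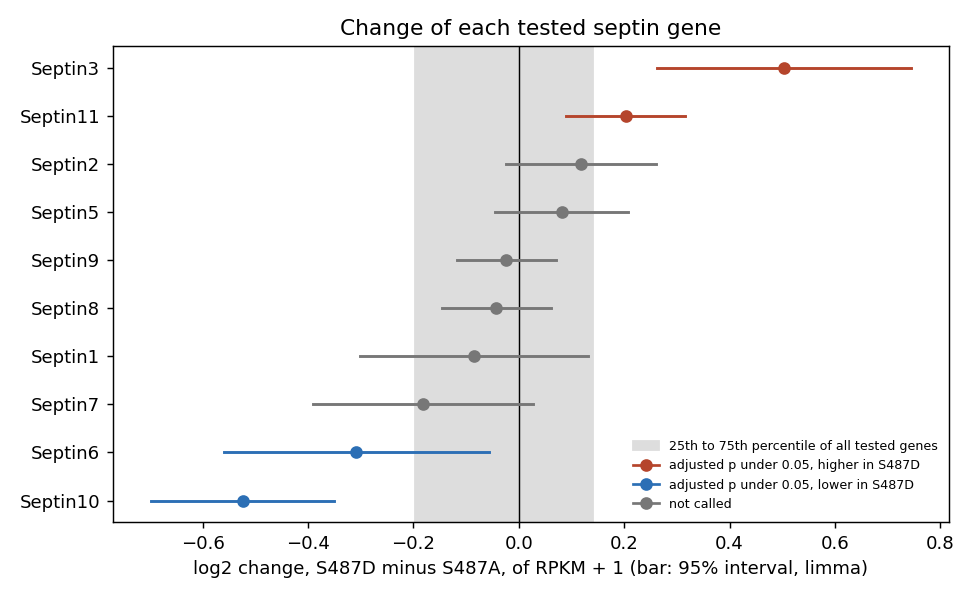
Log2 change of RPKM + 1, S487D minus S487A, for the 10 tested septins, with 95% intervals from limma and the middle range of all tested genes shaded (-0.20 to 0.14). Septin3 and Septin11 stand to the right of 0, Septin10 and Septin6 to the left, and the intervals of the other 6 include 0.

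The order of the levels was much alike in both groups. In S487D it ran Septin9, Septin5, Septin2, Septin11, Septin8, Septin3, Septin7, Septin10, Septin1, Septin6 and Septin4, and of these neighbours the library values overlapped for Septin8 and Septin3 alone. In S487A, Septin8 stood above Septin11 and Septin7 above Septin3, and no neighbours in the order overlapped. These levels are per length of the authors' gene model, so they depend on how well that model fits the transcripts of these cells.

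The summed level of the SEPT6 subgroup overlapped between the groups, while its make-up shifted from Septin10 and, by less, Septin6 towards Septin11. The sum was 53.9, 52.9 and 56.1 RPKM in S487D and 55.2, 54.6 and 55.7 RPKM in S487A. As a share of all septin RPKM it was 20.2 ± 0.21% in S487D and 21.1 ± 0.11% in S487A (SD, n = 3 each), and these shares did not overlap. Septin11 made up 45.3 ± 0.49% of the subgroup's sum in S487D and 38.5 ± 1.2% in S487A, and Septin10 made up 10.1 ± 0.21% in S487D and 15.2 ± 1.5% in S487A (SD, n = 3 each). Septin6 made up 3.12 ± 0.59% in S487D and 4.21 ± 0.41% in S487A, without overlap. Septin8 made up 41.4 ± 0.78% in S487D and 42.1 ± 1.7% in S487A, where the groups overlapped. The ratio of Septin11 to Septin10 was 4.34, 4.53 and 4.53 in the S487D libraries and 2.22, 2.77 and 2.67 in the S487A libraries. The shares of Septin11, Septin10 and Septin6 and the ratio restate the changes of these genes. No share or ratio was tested on its own.

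Septin10, on chromosome 20 from 28722446 to 28814841 on the minus strand (rn6), had the largest fall among the septins. It was read at 5.58, 5.27 and 5.67 RPKM in S487D, against 9.29, 7.56 and 8.30 RPKM in S487A, from 177 to 329 reads per library. Every S487D library lay below every S487A library, and the S487D libraries lay closer together. The log2 change was -0.52 (SE 0.078, limma adjusted p = 5.18e-04). Of all genes tested, 10.5% had a larger change in either direction.

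Septin11, on chromosome 14 from 16369544 to 16405645 on the minus strand, was read at 24.2, 23.9 and 25.7 RPKM in S487D and at 20.6, 21.0 and 22.2 RPKM in S487A. The protein is a filament partner in neurons and other cells. All S487D values lay above all S487A values. The log2 change was 0.20 (SE 0.050, limma adjusted p = 0.00940), a 1.15-fold rise in RPKM + 1, and 41.7% of all genes tested had a larger change.

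Septin6, on chromosome X from 123524950 to 123601213 on the minus strand, gives the subgroup its name but was its least abundant member. It was read at 1.32, 1.88 and 1.88 RPKM in S487D, against 2.50, 2.04 and 2.43 RPKM in S487A, from 79 to 147 reads per library. The groups did not overlap, and S487D replicate 1 was the lowest library. The log2 change was -0.31 (SE 0.11, limma adjusted p = 0.0488). The call was lost without S487D replicate 1 (adjusted p = 0.162), S487D replicate 2 (0.0524), S487A replicate 1 (0.135) or S487A replicate 3 (0.122), and in 6 other alternatives; over the 14 alternatives that tested it, the adjusted p ran from 0.00609 with voom to 0.219 after quantile normalization. The log2 change ran from -0.47, with a pseudocount of 0.01, to -0.18, after quantile normalization, and was -0.20 without S487D replicate 1.

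Septin8, on chromosome 10 from 38877422 to 38906480, stood at a level near that of Septin11. Its values were 22.7, 21.9 and 22.8 RPKM in S487D and 22.8, 24.0 and 22.8 RPKM in S487A. The groups overlapped, and the log2 change was -0.04 with a 95% interval of -0.15 to 0.06 (adjusted p = 0.484).

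**Figure D3:**
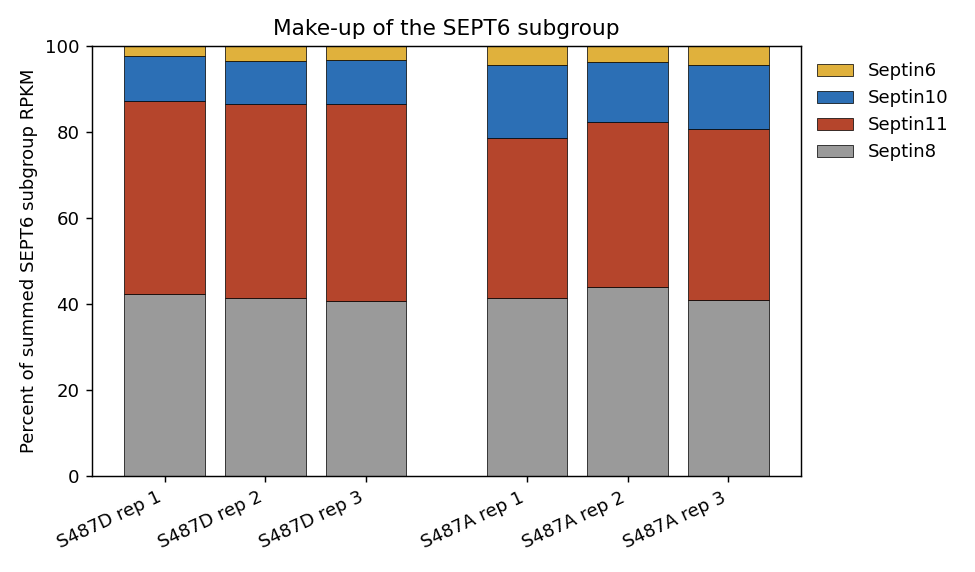
Percent of the summed SEPT6 subgroup RPKM held by each of its 4 members, a bar for each library, with the S487D libraries on the left. Septin11 takes 45.0 to 45.9% in S487D and 37.4 to 39.8% in S487A, and Septin10 takes 9.95 to 10.4% in S487D and 13.9 to 16.8% in S487A.

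Septin10 and Septin11 are the called members for which the RefSeq promoter table (GRCr8) holds a sequence, and their windows, from 250 bases before to 50 bases after the annotated start, are shown for that reason, written 5′ to 3′ along the gene. The Septin10 window is chr20:27737765-27738064 and the Septin11 window chr14:15275151-15275450, both on the minus strand. Capitals mark the GC box GGGCGG or its reverse complement CCGCCC, and a longer run of capitals is a pair of boxes that share a base.
Septin10: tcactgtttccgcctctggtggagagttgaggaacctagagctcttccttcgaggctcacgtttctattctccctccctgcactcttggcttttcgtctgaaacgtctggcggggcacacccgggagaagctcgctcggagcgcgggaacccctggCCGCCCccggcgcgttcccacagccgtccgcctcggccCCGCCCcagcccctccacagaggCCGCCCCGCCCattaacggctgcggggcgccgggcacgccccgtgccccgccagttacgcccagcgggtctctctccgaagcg
Septin11: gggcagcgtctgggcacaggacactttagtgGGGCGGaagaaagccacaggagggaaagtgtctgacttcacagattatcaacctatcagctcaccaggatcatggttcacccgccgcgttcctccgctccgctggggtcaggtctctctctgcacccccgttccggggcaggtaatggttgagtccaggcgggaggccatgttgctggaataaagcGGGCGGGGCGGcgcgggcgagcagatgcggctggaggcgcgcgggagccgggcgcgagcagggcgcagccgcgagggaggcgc
The Septin10 window held 4 GC boxes, starting at bases 157, 195, 218 and 223 of the printed sequence, and the Septin11 window held 3, starting at bases 32, 218 and 223. Their GC content was 69% in Septin10 and 66.3% in Septin11, where the median of all 33469 promoter windows was 51.7%. The GC box was thus found in the fallen and in the risen gene. A GC box occurred in 10 of the 13 windows of the 8 septins in the table and in 33.1% of all windows, and of these 8 septins Septin1 alone had none. The windows are not independent, since Septin4 supplies 4 of them. Its windows starting at 72875716 and 72875718 are nearly the same and hold the same boxes. The cAMP response element TGACGTCA, searched on both strands, was in none of the 13 and in 1.83% of all windows. A match in these letters is a description of the window around the annotated start, which may not be the start used in INS-1 cells.

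Septin3 and Septin9 form the SEPT3 subgroup, and the smaller of the pair rose. Septin3, a septin best known from neurons, lies on chromosome 7 from 123506535 to 123526542. Its level was 17.3, 15.7 and 22.5 RPKM in S487D and 12.4, 12.9 and 12.5 RPKM in S487A, from 136 to 232 reads per library. All S487D libraries lay above all S487A libraries, and S487D replicate 3 stood above the other two of its group. The log2 change was 0.50 (SE 0.11, 95% interval 0.26 to 0.74, limma adjusted p = 0.00425), a 1.42-fold rise in RPKM + 1, and it was 0.36 without S487D replicate 3 (adjusted p = 0.00232). Of all genes tested, 11.3% had a larger change.

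Septin9, a subunit of the longer rods that also binds actin and microtubules, was the most abundant septin mRNA. Its gene spans chromosome 10 from 106208308 to 106340747, the longest span of the 11. The level was 88.5, 84.7 and 90.0 RPKM in S487D and 86.0, 90.9 and 90.7 RPKM in S487A. The groups overlapped, and the log2 change was -0.02 with a 95% interval of -0.12 to 0.07 (adjusted p = 0.670). Septin3 made up 17.3 ± 2.4% of the subgroup's RPKM in S487D and 12.4 ± 0.27% in S487A (SD, n = 3 each).

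No member of the SEPT2 subgroup was called. Septin5, on chromosome 11 from 86516390 to 86522169, binds syntaxin and is known from synaptic vesicles in rat brain. The libraries gave 48.1, 46.3 and 50.9 RPKM in S487D and 42.5, 46.7 and 48.0 RPKM in S487A (log2 change 0.08, 95% interval -0.04 to 0.21, adjusted p = 0.266). Its row covers that of Gp1bb, a platelet receptor subunit gene on the same strand, which was read at 20.9 to 23.4 RPKM in S487D and 18.9 to 20.5 RPKM in S487A, so some reads may belong to either gene.

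Septin2, on chromosome 9 from 100624848 to 100658053, is a scaffold for non-muscle myosin in dividing cells. It was read at 44.2, 42.7 and 41.0 RPKM in S487D and at 42.1, 35.5 and 40.3 RPKM in S487A (log2 change 0.12, 95% interval -0.02 to 0.26, adjusted p = 0.160). It passed the threshold after median centring (adjusted p = 0.0320) and with voom on the reads (0.0394), and over 15 alternatives its adjusted p ran between 0.0320 and 0.503. Without S487A replicate 2, its lowest library, the log2 change was 0.05. Its end overlaps LOC100362040 on the other strand, at 7.74 to 8.74 RPKM in S487D and 6.94 to 8.32 RPKM in S487A, and the library kit does not mark strand.

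Septin1, on chromosome 1 from 198658744 to 198662610, a septin of lymphocytes, was low, at 3.51, 3.11 and 3.43 RPKM in S487D and 3.79, 3.05 and 4.05 RPKM in S487A (log2 change -0.08, adjusted p = 0.507). Its 95% interval ran from -0.30 to 0.13, and its 42 to 59 reads per library were the fewest of the tested septins. Septin4, on chromosome 10 from 74860237 to 74884196, encodes among others ARTS, a mitochondrial protein that antagonises the caspase inhibitor XIAP. It was the 1 septin that missed the filter, with 9, 2 and 8 reads in S487D and 5, 5 and 2 reads in S487A, or 0.319, 0.0763 and 0.308 RPKM in S487D and 0.181, 0.167 and 0.0706 RPKM in S487A. These few reads cannot show a difference between the groups.

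Septin7, on chromosome 8 from 26413233 to 26476611, was the seventh of the 11 in mean level in S487D and the sixth in S487A. Its libraries gave 13.8, 14.1 and 12.2 RPKM in S487D and 17.9, 14.4 and 13.9 RPKM in S487A. The groups overlapped, with S487A replicate 1 above the rest, and the log2 change was -0.18 (95% interval -0.39 to 0.03, adjusted p = 0.144). Without S487A replicate 1 it was -0.07 (adjusted p = 0.449). Septin7 made up 5.0 ± 0.52% of the summed septin RPKM in S487D and 5.90 ± 0.87% in S487A (SD, n = 3 each), a difference of -0.897 percentage points that was -0.403 without S487A replicate 1. Septin9 mRNA exceeded it 5.98- to 7.35-fold in S487D libraries and 4.8- to 6.53-fold in S487A libraries. RefSeq lists 5 near copies of Septin7 and 1 of Septin2. Of these, 4 and 1 have a row in the table and held 0 or 1 read in every library, so reads that match both could have been lost from Septin7 and Septin2 or counted there.

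The septins lie on 9 chromosomes, with 3 of them, Septin4, Septin8 and Septin9, far apart on chromosome 10. For each, the 25 tested genes on either side were described. The counts of called neighbours stand beside 20.1% of all genes tested called higher and 24.3% called lower. Around Septin10, from 20638579 to 31736115 on chromosome 20, 33 of the 50 genes were lower in S487D and 1 was higher, with a median log2 change of -0.36, and 15 of the 50 had a log2 change below that of Septin10 itself. With 10 genes on either side the median was -0.47. Most genes near Septin10 were thus lower as well, and the part of this stretch in its fall was not tested. A row on the other strand within Septin10, LOC103694418, held 0 to 2 reads per library.

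The median log2 change of the 50 genes around Septin3 was -0.03, with 11 higher and 14 lower in S487D, and 49 of them had a log2 change below that of Septin3. With 10 genes on either side, 2 of 20 were higher and 8 lower, with a median of -0.02. The exception was Cenpm, a centromere protein gene picked out after its values were seen, whose midpoint lies 0.0461 Mb from that of Septin3, towards the start of the chromosome (log2 change 0.56). Around Septin6, 4 of 50 genes were higher and 13 lower, with a median of -0.06, and 8 had a log2 change below that of Septin6. Around Septin11, 21 of 50 were higher and 14 lower, with a median of 0.14 that turned to -0.06 with 10 genes on either side. Around the other 7 septins the median ran from -0.05 to 0.07, and with 10 genes on either side from -0.13 around Septin8 to 0.16 around Septin5. For no septin was the part of its neighbours tested.

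**Figure D4:**
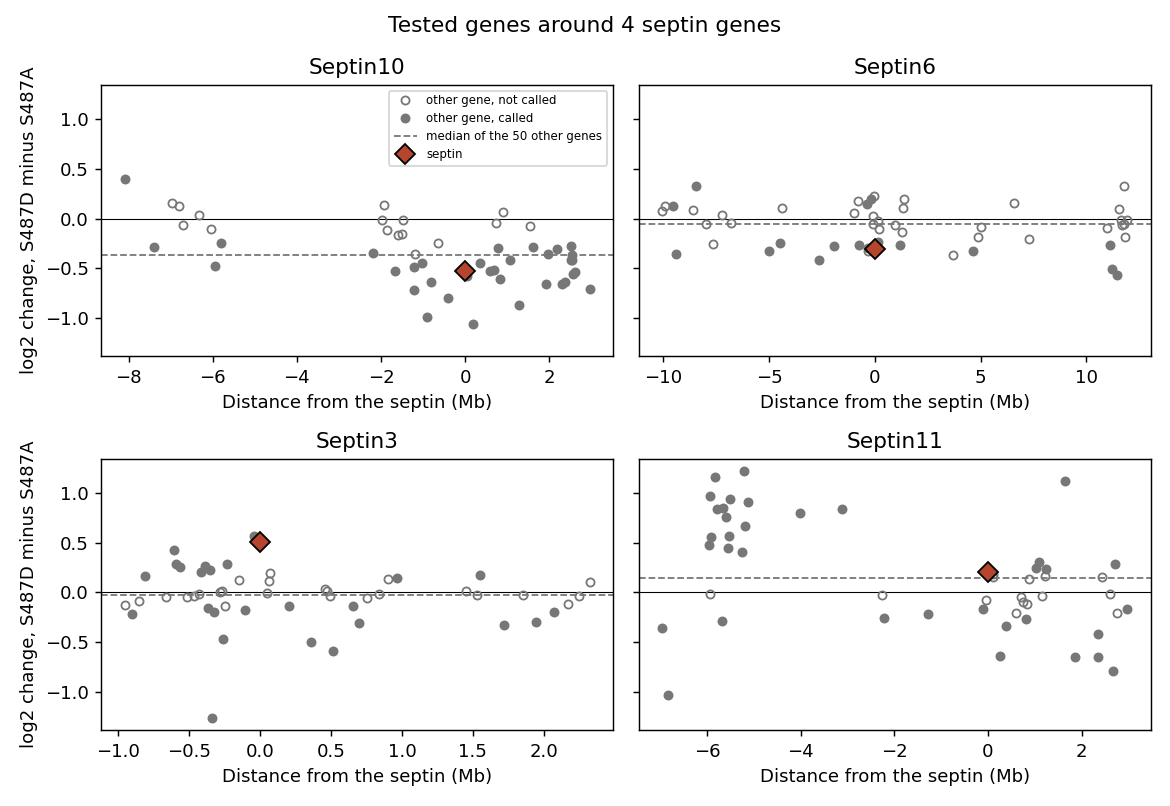
Log2 change, S487D minus S487A, of the 25 tested genes on either side of the 4 called septins, against distance from the septin in Mb, with filled points for called genes and a dashed line at the median of the 50. Most genes around Septin10 lie below 0 (median -0.36), while Septin3 stands above 49 of the 50 genes around it.

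The tested genes closest in pattern to Septin3 over the 6 libraries, by Euclidean distance of log2(RPKM + 1) values centred on each gene's mean, were Nkx2-2, a homeobox factor of islet cells (distance 0.137), Dfnb31 (0.157) and LOC103693110 (0.207). Nkx2-2 was read at 19.9, 17.9 and 23.7 RPKM in S487D and 13.02, 13.9 and 13.1 RPKM in S487A, with S487D replicate 3 the highest, as for Septin3. Closest to Septin10 were Adam9 (0.0678), Inpp4b (0.0735) and Mum1l1 (0.0950). Adam9, a membrane metalloprotease gene on chromosome 16, was read at 10.6, 10.1 and 10.9 RPKM in S487D and 16.8, 14.8 and 15.6 RPKM in S487A. A small distance says nothing of shared control.

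Genes whose products act with septins moved both ways. Of 61 genes in 5 lists, 54 were tested, and 17 rose, 12 fell and 25 were not called, a share of 53.7% beside 44.4% of all genes tested. Their median log2 change was -0.00, beside -0.01 for all genes tested. For each list below, the background is 20.1% of all genes tested called higher and 24.3% called lower.

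The microtubule list holds tubulin genes and Map4 among its 11 tested members. Of these, 6 rose, all of them tubulins, 1 fell and 4 were not called, with a median log2 change of 0.26, where 20.1% of all genes tested were called higher. Tuba4a was read at 123 ± 1.9 RPKM in S487D and 92.0 ± 3.1 RPKM in S487A, and Tubb2a at 20.3 ± 0.29 RPKM in S487D and 14.1 ± 0.66 RPKM in S487A (SD, n = 3 each, as for the genes that follow). Tuba1b fell slightly, to 292 ± 10.5 RPKM in S487D against 318 ± 7.0 RPKM in S487A, a call lost after median centring (adjusted p = 0.226, limma). The 50 tested genes around Tuba1b had a median log2 change of -0.47, those around Tuba4a of -0.05 and those around Tubb2a of 0.04. Map4, a microtubule-associated protein that competes with septins for microtubules, was not called, at 12.5 ± 0.93 RPKM in S487D and 13.85 ± 0.23 RPKM in S487A. Tubulin genes are alike in sequence, so their single values are uncertain.

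Among 19 tested genes of the contractile ring and actomyosin, 7 rose, 5 fell and 7 were not called (median log2 change 0.07). The light chain gene Myl12b was at 77.3 ± 1.4 RPKM in S487D and 54.5 ± 1.4 RPKM in S487A, and the actin-severing cofilin gene Cfl1 at 701 ± 13 RPKM in S487D and 575.5 ± 14.8 RPKM in S487A. Anln, which encodes anillin, the scaffold that brings septins to the furrow, rose to 13.8 ± 0.85 RPKM in S487D against 11.4 ± 0.16 RPKM in S487A. Ect2, the exchange factor that activates RhoA at the furrow, fell to 10.2 ± 0.23 RPKM in S487D, against 16.7 ± 0.47 RPKM in S487A. Racgap1, its partner, fell to 26.4 ± 1.0 RPKM in S487D, against 35.7 ± 1.0 RPKM in S487A. The 50 tested genes around Ect2 had a median log2 change of -0.49 and those around Racgap1 of -0.57. Around the risen Cfl1, 23 of 50 were higher and 3 lower (median 0.15), and the median around Myl12b was 0.08. Anln was picked out after its values were seen, as were Map4, Cdc42, Cdc42ep3 and Cdc42ep5.

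Of the genes for Borg proteins, effectors of the GTPase Cdc42 that bind septins directly, Cdc42ep4 and Cdc42ep1 fell and none rose, with 5 tested counting Cdc42 itself. Beside this, 24.3% of all genes tested were called lower and 44.4% were called in either direction. Cdc42ep4 was at 12.2 ± 0.44 RPKM in S487D and 15.05 ± 0.64 RPKM in S487A, and Cdc42ep1 at 1.54 ± 0.39 RPKM in S487D and 2.55 ± 0.35 RPKM in S487A. Around Cdc42ep4, 11 of 50 tested genes were higher and 20 lower (median log2 change -0.05). Around Cdc42ep1, 8 of 50 were higher and 22 lower (median -0.12), and the part of these neighbours was not tested. Cdc42 was at 120.4 ± 3.5 RPKM in S487D and 119.5 ± 3.9 RPKM in S487A and was not called. Cdc42ep5 (log2 change -0.25, limma adjusted p = 0.0725) and Cdc42ep3 (0.01, limma adjusted p = 0.942) were not called either. The list median was -0.25, the value of Cdc42ep5.

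Of 13 tested genes of vesicle fusion and the exocyst, the complex that tethers vesicles to the membrane, 3 rose, 4 fell and 6 were not called (median log2 change -0.10), a balance that turned to 4 risen and 1 fallen after median centring and to 4 and 2 after quantile normalization. Exoc6 fell to 19.9 ± 1.1 RPKM in S487D, against 33.7 ± 1.2 RPKM in S487A, and Exoc4 fell to 12.7 ± 0.44 RPKM in S487D, against 14.5 ± 0.48 RPKM in S487A. The Exoc4 call was lost after median centring (limma adjusted p = 0.0761) and quantile normalization (0.0834). Exoc3 rose to 42.2 ± 0.82 RPKM in S487D, against 34.0 ± 1.2 RPKM in S487A. Of 6 tested genes of the ARTS partners and caspases, Casp9, an initiator caspase gene, rose to 12.2 ± 0.33 RPKM in S487D, against 9.49 ± 0.58 RPKM in S487A, 0 fell and 5 were not called (median log2 change 0.02).

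**Figure D5:**
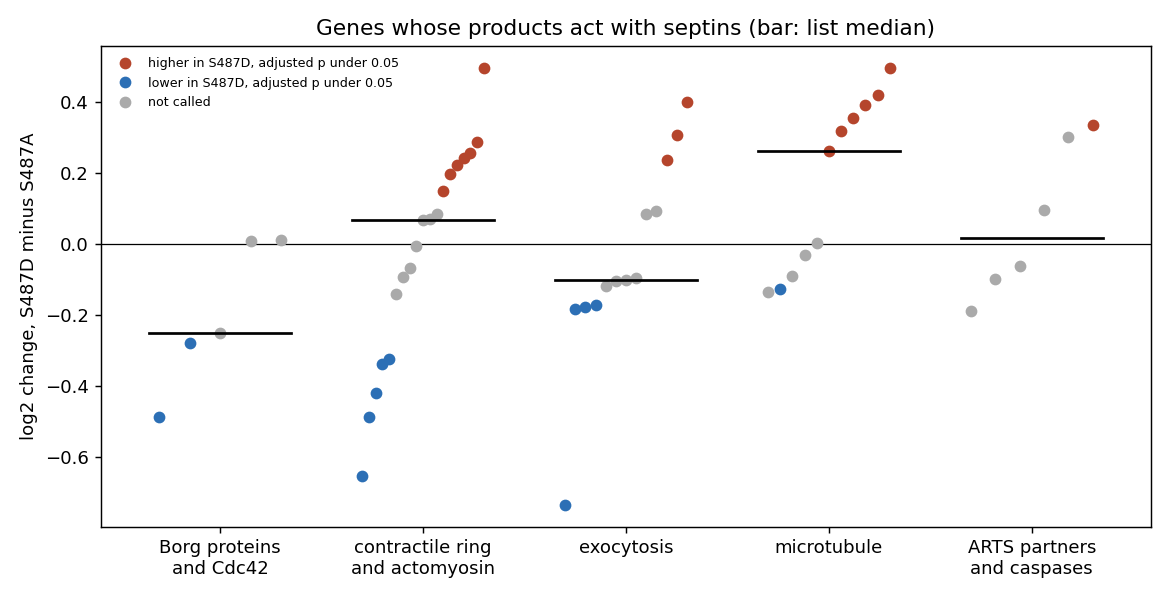
Log2 change, S487D minus S487A, of the 54 tested genes in 5 lists of septin partners, a point for each gene, coloured by call, with a bar at each list's median. The medians are -0.25 for Borg proteins and Cdc42, 0.07 for the contractile ring, -0.10 for exocytosis, 0.26 for microtubule genes and 0.02 for ARTS partners and caspases.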

How the data were processed

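The labels' protocols name Trizol for the RNA and a TruSeq kit for the libraries. The submitters' processing notes list TopHat2 2.0.13, cutadapt, bcl2fastq 2.17 and the build rn6. Counter, annotation and filters: not given in the sources used here. As for the unit of the values, the authors deposited RPKM per gene and library. Multiplied by length, the values step by whole reads, within 0.05 of a read for at least 99.95% of them, which gave reads per gene and shows that the authors' RPKM is relative to reads assigned to the listed genes. At 1 kb of length, 0.0920 to 0.106 RPKM is 1 read. No value was scaled further. Sample titles gave the groups.

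The test was limma 3.58.1 (under R 4.3.3) on log2(RPKM + 1), which understates the change of low genes, for genes that reached 1 RPKM in 3 or more libraries. It had a term for group alone, a trend with intensity and Benjamini-Hochberg adjustment over all 12527 genes tested. Single genes also had an exact permutation test, two-sided. Tested on simulated reads for 12527 genes (S487D against S487A), 10.0% of genes changed 1.2-fold were recovered, 68% at 1.5-fold and 94% at 2-fold, with 5 false calls of 141. The data gave 5564 calls, so the p-value needed for a call differed and these rates need not hold for the septins. Septin11 was called at 1.15-fold, and small septin changes can still be missed.

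The septins, the lists and the tests were chosen with earlier results of these data known. All septins are named. From each partner list the rule takes up to 4 called genes, the 2 with the smallest p in each direction. A gene taken by this rule is not reported here. The genes closest in pattern are named for the largest rise and the largest fall. Gene lengths in the table and RefSeq (GRCr8) names and promoters were used as given. Alternatives were other pseudocounts and filters, quantile normalization, median centring, no trend, voom on the reads with TMM scaling, a replicate block and each library left out. Tables and figures used Python 3.11.15.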

Additional observations from a re-analysis of the deposited data

How the results depend on the processing

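Septin3, Septin10 and Septin11 kept their direction and their call in all 15 alternatives (log2 changes of 0.36 to 0.61, -0.60 to -0.44 and 0.17 to 0.26). Higher septins were 2, and 3 with median centring and with voom, which added Septin2. Of lower septins, 2 became 1, Septin10, with pseudocounts of 0.1 and 0.01, without a filter, with a filter at RPKM 5 (Septin6 not tested), after quantile normalization and median centring and with the replicate block, and it was 1 to 2 with each library left out. Signs turned for Septin1 after quantile normalization (0.0190), for Septin8 (0.0152) and Septin9 (0.0336) after median centring, and Septin9 ran from -0.0499 to 8.02e-04 with each library left out, none of them called. The cause was not tested. The SEPT3 subgroup share in S487D minus that in S487A was 0.533 percentage points by RPKM, -0.163 by reads, and -0.0587 to 1.14 with each library left out (negative without S487D replicate 3 and without S487A replicate 1), within the spread between libraries. For the SEPT6 subgroup it was -0.898 by RPKM and -1.40 by reads, and the groups overlapped in neither. For the SEPT2 subgroup it was 1.26 by RPKM, where the groups overlapped, and 2.13 by reads, where they did not. With 10 genes on either side the median log2 change turned to 0.0446 around Septin4, 0.10 around Septin9 and -0.0625 around Septin11, and moved to 0.157 around Septin5 and -0.128 around Septin8. The replicate block (1 lower and 2 higher septins, 2369 genes higher and 2966 lower of all) rests on numbers alone: same-numbered libraries had correlations of deviations from -0.06 to 0.01. Upward calls among all genes were 2523 of 5564, and 3512 of 5965 after median centring and 3096 of 5588 after quantile normalization, and these shift the median of all genes by under 0.1. Depth limits Septin4 and Septin1 most.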
